A study of Mus musculus with 9 samples.

Results

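By their names, the genes described here belong to the axoneme of the motile cilium or assemble its dynein motors, and Foxj1 is among them. They were taken from the gene table by name: symbols that begin with Dnah, Dnai, Dnaaf, Cfap, Rsph, Tekt or Drc followed by a digit, with Foxj1 and Mcidas added, and with an FPKM (counted reads scaled by exon length and library total) of at least 0.5 in at least 3 of the 9 libraries. Of 80 symbols that match, 74 met the FPKM minimum, among 55359 genes in the table. They comprise 34 Cfap genes, 15 Dnah symbols, 7 Rsph, 6 Dnaaf, 4 Dnai, 4 Tekt and 3 Drc genes, and Foxj1. One Dnah symbol, Dnah2os, is a noncoding RNA on the strand opposite to Dnah2, so 14 of the Dnah symbols are dynein heavy chains.

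A motile cilium is built on a ring of microtubule doublets around a central pair. Outer and inner dynein arms slide the doublets against each other, radial spokes and the nexin-dynein regulatory complex relay and limit that sliding, and tektins run along the doublets. A name does not show that every member serves only there. In the lung such axonemes are built by the multiciliated cells of the airway lining, which move mucus and trapped dust toward the throat. Foxj1 is the transcription factor that switches on most of the program in such cells, with RFX factors acting on many of the same promoters.

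Whole lung was taken from male C57BL/6J mice, aged 6 to 8 weeks, on day 28 after an instillation into the trachea. Control mice received saline, Silica mice 5 mg of silica in saline, and Silica + ATL-III mice the same silica plus atractylenolide III, a plant sesquiterpene lactone, given into the abdomen at 30 mg/kg/d. Each arm held 20 mice, and 3 libraries of polyadenylated RNA represent it. The labels name no vehicle injection in the other arms and no arm with ATL-III but without silica, so an effect of ATL-III apart from silica cannot be told apart here. They do not say that the libraries of a group are separate mice, and the p-values below measure the spread between these libraries.

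Library totals were between 16047175 and 17792481 counts. The members had a median of 300 counts per library, with a lowest count of 10. All 11 markers chosen to identify multiciliated cells were found in every library. Those outside the name rule included Dynlrb2, a light chain of the dynein motors, at 136.86 to 247.86 FPKM, Tppp3, a tubulin-binding protein, at 117.77 to 200.04 FPKM, and Ccdc39, a ruler protein of the axoneme, at 7.34 to 11.78 FPKM. Of 14 genes of testis and sperm, where axonemes are also built, 3 had enough signal to be tested. Prm2, Tnp1, Odf1 and Acrv1 were at 0 in every library, but the list as a whole was not silent. Its summed FPKM was 16.9 to 18.9 in Control, 8.93 to 15.1 in Silica and 12.6 to 17.6 in Silica + ATL-III. None of 4 markers of ependyma and choroid plexus reached the minimum. In whole lung, a fall in ciliated cells and a fall in RNA per ciliated cell cannot be told apart.

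RFX factors bind the X-box, an inverted repeat for which promoters of ciliary genes are known. It was sought on both strands of the members' promoters as the arm GTNNCC, 2 free bases and the reverse complement of the arm, GGNNAC. RefSeq windows of 300 bases (250 before to 50 after a gene's start, GRCm38.p6) existed for 55 of the 74 members. The motif was in 9 of them (16.4%), against 583 of 27025 mouse genes with such windows (2.16%). The members with a match are shown 5′ to 3′ on the gene's strand, with the whole motif in capitals, so that the letters shared between genes can be seen.
Cfap126, chr1:171122945-171122994, plus strand: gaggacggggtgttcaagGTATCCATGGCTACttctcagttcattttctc
Cfap206, chr4:34730198-34730247, minus strand: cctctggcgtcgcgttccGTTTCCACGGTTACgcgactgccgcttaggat
Cfap20dc, chr14:8666361-8666410, minus strand: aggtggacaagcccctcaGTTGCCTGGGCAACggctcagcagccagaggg
Cfap298, chr16:90935006-90935055, minus strand: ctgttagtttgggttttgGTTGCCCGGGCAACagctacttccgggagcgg
Cfap77, chr2:29055271-29055316, minus strand: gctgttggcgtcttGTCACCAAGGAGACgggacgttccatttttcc
Dnaaf5, chr5:139150199-139150248, plus strand: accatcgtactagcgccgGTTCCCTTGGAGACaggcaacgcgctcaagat
Dnaaf6b, chrX:140062854-140062903, plus strand: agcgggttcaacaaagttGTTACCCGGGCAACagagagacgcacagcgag
Rsph9, chr17:46144175-46144224, minus strand: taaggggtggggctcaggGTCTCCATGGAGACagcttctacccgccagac
Tekt4, chr17:25471412-25471461, plus strand: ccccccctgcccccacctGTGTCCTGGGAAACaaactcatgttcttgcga
In Cfap298 and Rsph9 the motif reads the same on both strands, and in Cfap20dc its arms do. The arms in Cfap298 and Cfap20dc are the core GTTGCC. In Rsph9 and Dnaaf6b the motif lies at the gene's start, at positions -6 and -7, and in Cfap77 it lies farthest upstream, at -236.

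The core GTTGCC alone, on either strand, was in 24 of the 55 members (43.6%) and in 3821 of all 27025 genes (14.1%). It can lie inside the longer motif, as it does in Cfap20dc, Cfap298 and Dnaaf6b. None of the 13 dynein heavy chains with a window held the longer motif, and 4 of them (30.8%), Dnah7a, Dnah7b, Dnah7c and Dnah10, held the core. The forkhead motif TGTTTAC was in 3 members (5.45%, against 4.05% of all genes), and the CCAAT box, a common promoter element that served as a comparison, was in 24 (43.6%, against 41.1%). A match describes letters in a window and not a bound site. Cfap161 and Dnah14 were among the members with their highest group mean in Silica + ATL-III, as were Foxj1 and Dnaaf3. Promoters of Cfap161 and Dnah14 are printed whole as examples, since their values are described below. That of Cfap161 held the core 3 times, in capitals as its reverse complement, and that of Dnah14 held no match.
Cfap161, chr7:83794790-83795089, minus strand: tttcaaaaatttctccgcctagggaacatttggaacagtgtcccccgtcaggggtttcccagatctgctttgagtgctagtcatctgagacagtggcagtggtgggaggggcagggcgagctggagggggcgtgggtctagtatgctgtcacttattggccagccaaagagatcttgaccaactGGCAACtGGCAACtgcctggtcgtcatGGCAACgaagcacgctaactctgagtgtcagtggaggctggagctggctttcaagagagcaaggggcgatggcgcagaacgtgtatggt
Dnah14, chr1:181576343-181576642, plus strand: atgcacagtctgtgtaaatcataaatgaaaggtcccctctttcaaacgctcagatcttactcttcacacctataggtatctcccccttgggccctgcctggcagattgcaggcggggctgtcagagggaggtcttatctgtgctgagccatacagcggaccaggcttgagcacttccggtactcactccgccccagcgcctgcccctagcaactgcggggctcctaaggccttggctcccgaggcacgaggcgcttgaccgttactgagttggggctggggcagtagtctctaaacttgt

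The axoneme genes differed far more from each other than between groups. Mean FPKM over the 9 libraries, a level per length, ran from 0.304 for Dnah14 to 31.1 for Cfap126, with a median of 4.62. The mean was at least 10 FPKM in 16 members and at least 20 FPKM in 4, namely Cfap126 (31.1), Rsph1 (30.3), Cfap36 (29.0) and Cfap43 (20.7). Foxj1 followed at 19.5 FPKM. Among heavy chains, the motor subunits of the arms, Dnah6 had the highest mean at 8.13 FPKM and Dnah5, the outer-arm chain whose loss is a classic cause of immotile cilia, came next at 6.56 FPKM. Dnah12 (5.21), Dnah3 (4.67) and Dnah10 (3.78 FPKM) followed, and Dnah9, the outer-arm partner of Dnah5, had 1.72 FPKM. Dnah7a, Dnah7b and Dnah7c are near-identical copies, as are Rsph3a and Rsph3b, and counting may have split reads between them. The members sit on 19 chromosomes, with 10 of them on chromosome 11.

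All 9 libraries held 70 of the members at or above 0.5 FPKM. The other 4 lie just inside the minimum: Tekt5 reached it in 7 libraries, Dnah17 and Cfap20dc in 4 each, and Dnah14 in the 3 Silica + ATL-III libraries and no other. Dnah14 therefore entered only through the group where it is high, so its values are given below as a description. The counts of calls are given for the other 73 members in the comparisons with that group. Cfap20dc reached the minimum in Control and Silica libraries only. It stays in those counts, but its fall in Silica + ATL-III is likewise a description. Just outside, Cfap97d1 and Mcidas reached the minimum in 2 libraries each, while Tekt3, Dnah8, Dnaaf6 and Rsph6a reached it in none. Mcidas, a regulator that commits cells to the multiciliated fate, had FPKM values of 0.28, 0.45 and 0.75 in Control 1 to 3, 0.48, 0.20 and 0.50 in Silica 1 to 3, and 0.21, 0.18 and 0.20 in Silica + ATL-III 1 to 3. The Silica + ATL-III libraries overlap the Silica range at 0.20, and with 7 to 29 reads per library this gene was not tested.

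**Figure D1:**
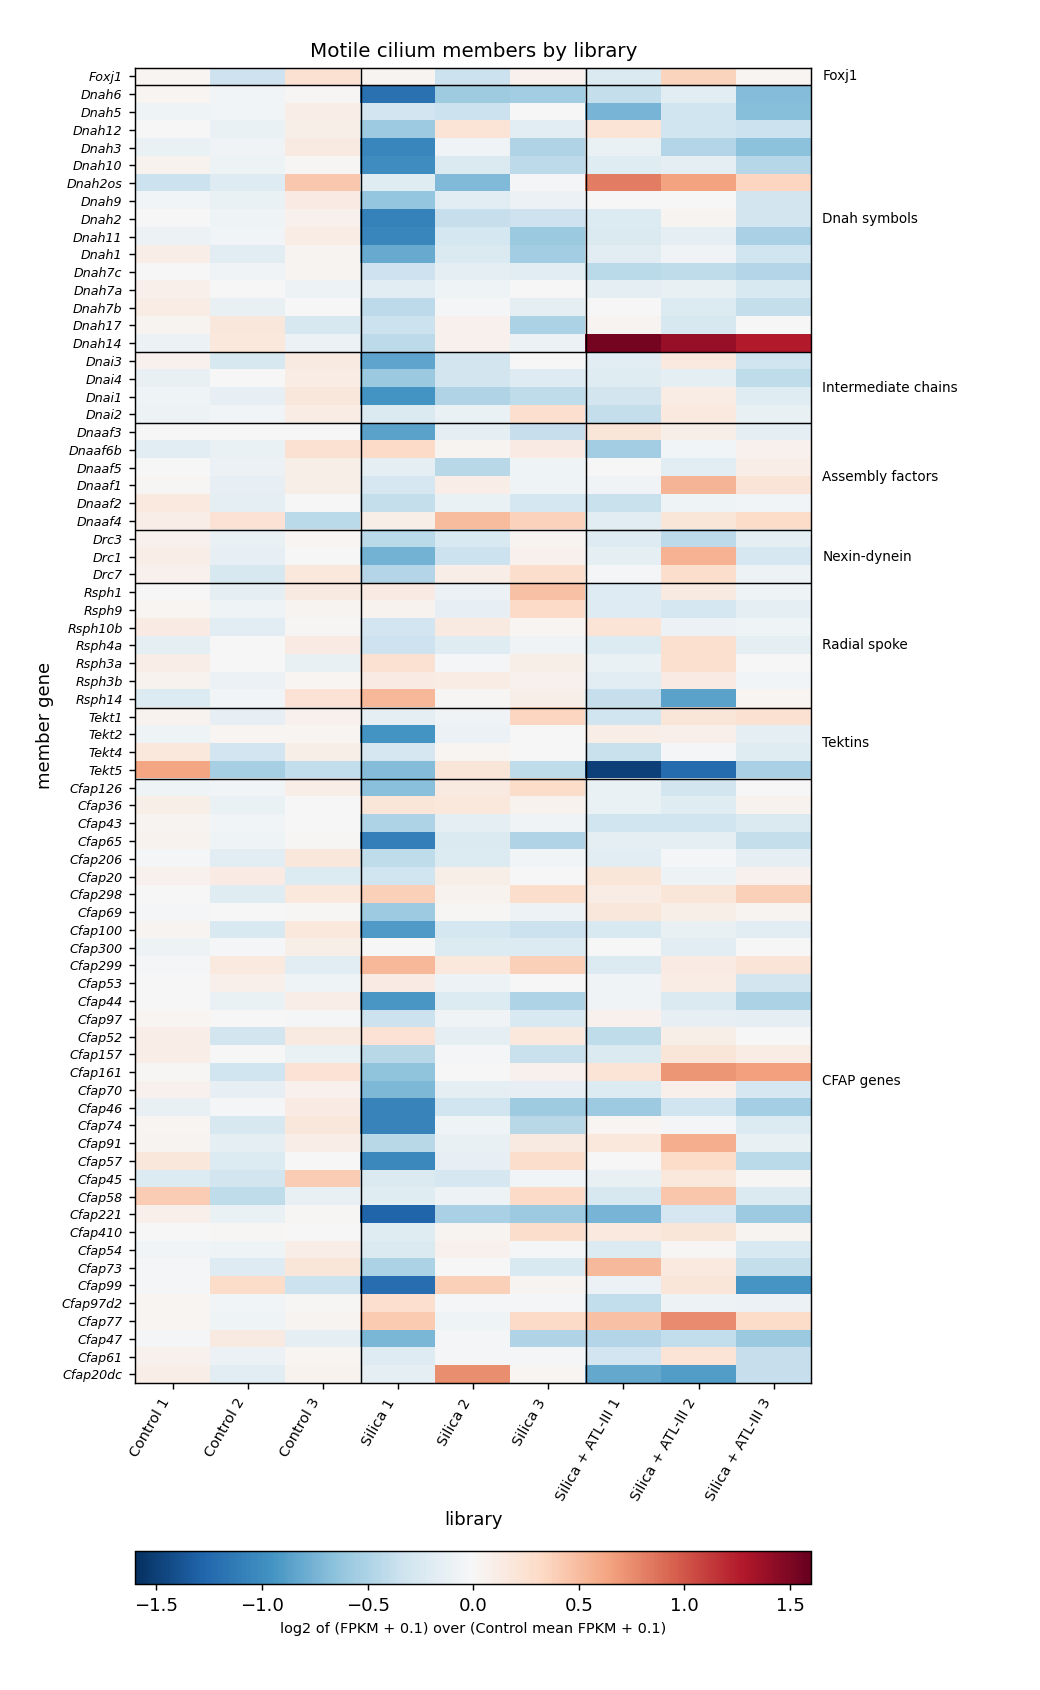
Each row is a member and each column a library; colour gives the log2 of (FPKM + 0.1) over (mean FPKM of the 3 Control libraries + 0.1), with members grouped by symbol class. Most rows stay pale in every library, Silica 1 is the column with the most low values, and Dnah14 is high in the 3 Silica + ATL-III libraries.

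The comparison of Silica with Control asks whether the axoneme genes were altered 28 days after silica. Few were called: 3 of 74 members were lower at an adjusted p under 0.05 (edgeR's quasi-likelihood test on counts, Benjamini-Hochberg adjusted over 18103 genes) and none was higher. That is 4.05% of the members in either direction, against 14.2% of all genes tested, with 8.36% of all genes higher and 5.81% lower. The log2 fold changes of members ran from -0.67 to 0.50 with a median of -0.08, beside a median of 0.00 over all genes, and 70 members were within 0.5 of 0. At an unadjusted p under 0.05, 11 members were lower and 3 higher. That limit is looser than the adjusted one, which 14.2% of all genes passed, and the share of all genes at it was not counted. DESeq2 called 5 members lower and 1 higher, beside 18.8% of all genes in either direction. The count of 3 rested on which libraries were used. It was 0 without Control 1, Control 3 or Silica 1, and 1 without Control 2 or Silica 3. Without Silica 2 it was 11, and 3 members were called higher. The share of all genes called moved too. It was 6.58%, 4.72% and 4.71% without Control 1, Control 3 and Silica 1. It was 6.25% and 6.32% without Control 2 and Silica 3, and 22.1% without Silica 2.

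The lower members were Dnah6, Cfap46 and Cfap221. Dnah6, an inner-arm heavy chain on chromosome 6, had FPKM values of 10.66, 10.06 and 10.51 in Control 1 to 3, 4.49, 6.98 and 7.03 in Silica 1 to 3, and 7.98, 9.13 and 6.37 in Silica + ATL-III 1 to 3. Every Silica library lay below every Control library, and Silica 1 was the lowest of all 9. The means were 10.4 ± 0.312 (SD, n = 3) and 6.17 ± 1.45 FPKM (SD, n = 3), and the log2 fold change was -0.64 ± 0.16 (SE; edgeR adjusted p = 0.021). The call was lost without Control 1, Control 3 or Silica 1, where the adjusted p reached 0.068. Gm20560, which overlaps Dnah6 on the opposite strand, had a log2 fold change of -0.02 in Silica (edgeR adjusted p = 0.94).

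Cfap46 and Cfap221 belong to the C1d projection of the central pair, a complex known from algae and mice that also holds Cfap54 and Cfap74. Cfap46 (chromosome 7) had FPKM values of 4.65, 4.97 and 5.53 in Control 1 to 3, 2.36, 4.02 and 3.38 in Silica 1 to 3, and 3.33, 4.03 and 3.43 in Silica + ATL-III 1 to 3. Its log2 fold change in Silica was -0.52 ± 0.15 (SE; edgeR adjusted p = 0.042). Gm4459, which overlaps Cfap46 on the same strand of the table, had 0.90 (adjusted p = 0.098). Cfap221 (chromosome 1) had 3.97, 3.48 and 3.79 FPKM in Control, 1.48, 2.59 and 2.47 FPKM in Silica, and 2.19, 3.09 and 2.47 FPKM in Silica + ATL-III. Its log2 fold change in Silica was -0.67 ± 0.21 (SE; edgeR adjusted p = 0.049). In neither gene did Silica overlap Control. Leaving out Control 1, Control 2, Control 3, Silica 1 or Silica 3 ended each of these calls, with adjusted p up to 0.14 for Cfap46 and 0.16 for Cfap221. Of the remaining C1d genes, Cfap74 had a log2 fold change of -0.37 (adjusted p = 0.21) and Cfap54 of 0.06 (adjusted p = 0.78); these 2 were singled out after their values were seen.

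Seen by role, the dynein genes leaned lower and the spoke genes higher, with few calls in either. Of 15 Dnah symbols, 14 had a log2 fold change below 0 (median -0.18). All but Dnah2os have at least 12 kb of exon, and 593 of the 745 tested genes of that length were below 0 (median -0.20). Dnah6 was the Dnah member called. Dnah11, an outer-arm chain whose human counterpart is a disease gene of cilia, followed at -0.54 (edgeR adjusted p = 0.053). Dnah5 was at -0.09 ± 0.14 (SE; adjusted p = 0.7). The 4 intermediate chains had a median of -0.23, led by Dnai1 of the outer arm at -0.49 (adjusted p = 0.073). By contrast 6 of 7 Rsph genes were above 0 (median 0.23), none called. All have under 4 kb of exon, where all tested genes had medians of 0.10 (under 2 kb) and 0.09 (2 to 4 kb). Rsph1, a spoke-head protein, had FPKM values of 29.02, 26.39 and 32.39 in Control 1 to 3, 32.00, 27.31 and 40.43 in Silica 1 to 3, and 25.46, 32.30 and 27.80 in Silica + ATL-III 1 to 3. These groups overlap, and the log2 fold change in Silica was 0.31 ± 0.15 (SE; adjusted p = 0.19). Without Silica 2, Rsph1 passed the threshold at an adjusted p of 0.038. Assembly factors (median -0.02), regulatory complex genes (-0.08), tektins (-0.06) and the Cfap genes (-0.04) were centred close to the all-gene median.

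Foxj1, the regulator of the program, was not called in any comparison. Its FPKM values were 19.94, 15.47 and 23.03 in Control 1 to 3, 20.07, 15.35 and 20.42 in Silica 1 to 3, and 16.57, 25.07 and 19.99 in Silica + ATL-III 1 to 3. All 3 groups overlap, and the log2 fold change of Silica over Control was 0.06 ± 0.18 (SE; edgeR adjusted p = 0.86).

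Among the 4 members with a mean of at least 20 FPKM, Cfap43 had no overlap between Silica and Control, and the others did. Cfap43, which tethers inner arms, had FPKM values of 24.01, 22.52 and 23.22 in Control 1 to 3, 16.42, 20.94 and 22.40 in Silica 1 to 3, and 18.66, 18.68 and 19.80 in Silica + ATL-III 1 to 3. Its log2 fold change in Silica was -0.11 (edgeR adjusted p = 0.55), a value on counts after TMM scaling, whereas FPKM carry no such scaling. Cfap126, a protein that positions basal bodies and lies on the doublets, had 30.62, 31.12 and 34.68 FPKM in Control, 20.15, 35.60 and 39.51 FPKM in Silica, and 29.76, 26.23 and 32.01 FPKM in Silica + ATL-III. Cfap36 had 30.51, 26.53 and 28.59 FPKM in Control, 32.77, 32.12 and 29.68 FPKM in Silica, and 26.42, 25.01 and 29.65 FPKM in Silica + ATL-III. Neither was called in any comparison. Of other members at 10 FPKM or more, Cfap65 (log2 fold change -0.45, edgeR adjusted p = 0.076), Cfap100 (-0.38, adjusted p = 0.1) and Dnaaf3 (-0.32, adjusted p = 0.18) also had every Silica library below every Control library.

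The most abundant intermediate chains, tektins and regulatory complex genes, and the assembly factor Dnaaf6b, were not called in any comparison either. Dnai3, an intermediate chain of the inner arms, had 8.00, 6.36 and 8.44 FPKM in Control, 4.20, 6.18 and 7.60 FPKM in Silica, and 6.77, 8.48 and 6.07 FPKM in Silica + ATL-III. Dnai4 had 6.94, 7.51 and 8.24 FPKM in Control, 4.99, 6.14 and 6.55 FPKM in Silica, and 6.62, 6.80 and 5.67 FPKM in Silica + ATL-III. Of this pair, Dnai4 had no overlap between Silica and Control (log2 fold change -0.24; edgeR adjusted p = 0.17). Tekt1 had 18.13, 15.91 and 18.30 FPKM in Control, 15.80, 16.72 and 22.11 FPKM in Silica, and 14.00, 19.99 and 20.60 FPKM in Silica + ATL-III. Tekt2 had 7.18, 7.64 and 7.70 FPKM in Control, 3.81, 7.01 and 7.51 FPKM in Silica, and 8.11, 7.98 and 6.79 FPKM in Silica + ATL-III. The groups of both tektins overlap, and Tekt2 was lowest in Silica 1. Drc3 had 11.20, 9.93 and 10.93 FPKM in Control, 7.90, 9.0 and 11.02 FPKM in Silica, and 9.28, 7.96 and 9.57 FPKM in Silica + ATL-III. Dnaaf6b had 2.86, 3.01 and 3.84 FPKM in Control, 4.04, 3.35 and 3.54 FPKM in Silica, and 2.16, 3.13 and 3.41 FPKM in Silica + ATL-III. Silica overlaps Control in both of these genes.

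**Figure D2:**
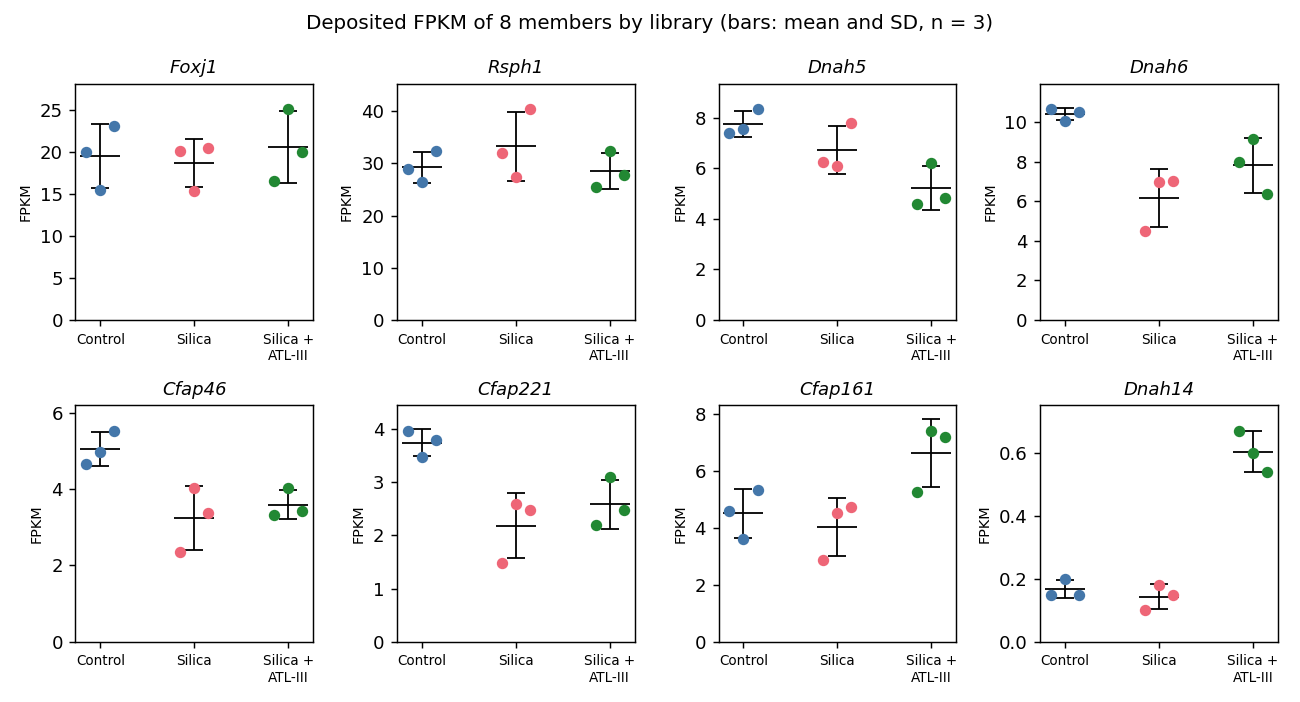
Deposited FPKM (vertical axes, each from 0) of 8 members in each library (points) with the group mean and SD (n = 3), for Control, Silica and Silica + ATL-III. Dnah6, Cfap46 and Cfap221 are lower in every Silica library than in any Control library, Dnah14, which the FPKM minimum selected through this group, and Cfap161 are higher in every Silica + ATL-III library than in any Silica library, and the groups of Foxj1 overlap.

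By deposited FPKM, 16 members had every Silica library below every Control library (21.6% of members, against 27.0% of all genes tested) and 2 had every Silica library above (against 13.2%). The deposited FPKM carry no scaling beyond the library total, and on them the median log2 ratio of all tested genes was -0.10, that of the members -0.15. Scaling counts by library totals alone, which moved the all-gene median to -0.12, raised the number of lower members from 3 to 9. The share of all genes called in either direction went from 14.2% to 16.6%.

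Silica 1 was the library in which members were most often low. It was the lowest of the 9 for 43 of 74 members and the lowest of its group for 54. Its median log2 ratio to the Control mean was -0.42 over the members, while Silica 2 had -0.08 and Silica 3 had -0.03; over all tested genes the values were -0.21, -0.07 and -0.13. The heavy chains were lowest in this library, with a median of -0.70 against -0.34 for the other members, and 730 other genes with at least 12 kb of exon had -0.49 in it. Members made up 0.168% of the counts in Silica 1, 0.218% and 0.219% in Silica 2 and 3, and 0.227% to 0.251% in the Control libraries. Without Silica 1 the median log2 fold change of the members was -0.00.

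Heavy chains are among the longest transcripts, and length moved with the difference across the whole table. Median log2 fold changes of Silica over Control fell from 0.10 in genes under 2 kb of exon to -0.20 in the 745 genes of 12 kb and over. Members ran from 0.10 in the 15 shortest to -0.18 in the 15 of 12 kb and over, close to the genes of their length. The 5 members of 8 to 12 kb stood at -0.37, against -0.13 over all genes of that length. When the length trend of each library was removed, the long members had a median of 0.02. The count of lower members was then 2, Dnah6 and Cfap221, with 12.2% of all genes called in either direction. Without Silica 1 the long members had -0.09 and all genes of that length -0.16. The part of length in the calls on single members was not tested beyond that.

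**Figure D3:**
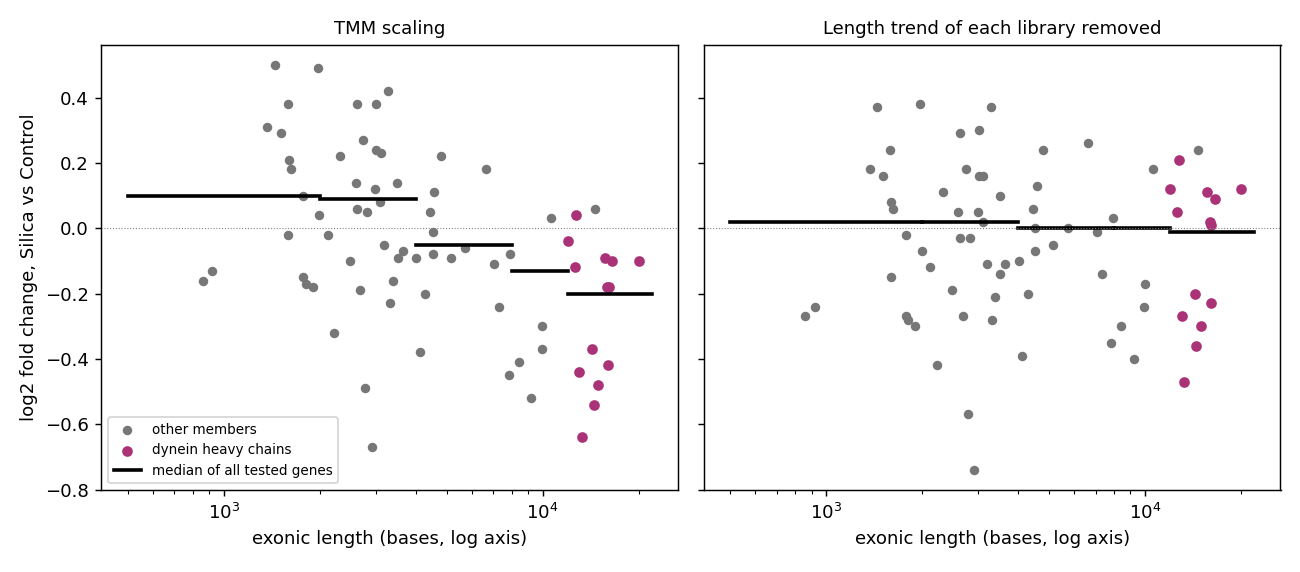
Log2 fold change of Silica over Control (vertical axis) against exonic length in bases (log axis), with TMM scaling (left) and with each library's length trend removed (right). Points are the members, heavy chains in purple, and black bars are medians of all tested genes by length class, which fall from 0.10 to -0.20 on the left and stay within 0.02 of 0 on the right.

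Silica + ATL-III was compared with Silica to ask what the compound changed in silica-exposed lung. Of the 73 members other than Dnah14, Cfap161, Dnaaf3 and Dnah2os rose and Cfap20dc fell. These are 5.48% of the 73, against 18.5% of all genes tested in either direction (9.95% higher and 8.58% lower). Cfap20dc reached the FPKM minimum only in Control and Silica libraries, so its fall is counted as a description. With Dnah14 counted, 4 of 74 were higher and the share was 6.76%. The median log2 fold change was 0.13 with or without Dnah14, beside 0.00 for all genes, and 66 members were within 0.5 of 0. At an unadjusted p under 0.05, 12 of the 73 were higher and 3 lower. The share of all genes at that looser limit was not counted, and 18.5% passed even the adjusted one. The number of higher members among the 73, which was 3, became 1 without Control 1, Control 2, Silica 3 or Silica + ATL-III 1. It became 0 without Silica 1 or Silica + ATL-III 2, and 7 without Silica 2. The share of all genes called in either direction moved too. It was 11.8% without Silica 1, 10.8% without Silica + ATL-III 2 and 21.9% without Silica 2.

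Dnah14, a little-studied heavy chain on chromosome 1, had FPKM values of 0.15, 0.20 and 0.15 in Control 1 to 3, 0.10, 0.18 and 0.15 in Silica 1 to 3, and 0.67, 0.60 and 0.54 in Silica + ATL-III 1 to 3. The Silica + ATL-III libraries lie far above the other 6. The fitted log2 fold change was 2.09 over Silica and 1.99 over Control. Since the FPKM minimum selected Dnah14 by these same values, no test is given for it. In the gene table Dnah14 overlaps Lbr, a lamin receptor of the nuclear envelope, on the opposite strand. Lbr had 14.24, 16.78 and 13.89 FPKM in Silica and 29.90, 32.92 and 32.17 FPKM in Silica + ATL-III, a log2 fold change of 1.11 ± 0.11 (SE; edgeR adjusted p = 9.9e-05). The library protocol names no step that marks strand, so reads of Dnah14 and of Lbr in their overlap cannot be told apart.

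Cfap161, a protein inside the doublet microtubules (chromosome 7), had FPKM values of 4.58, 3.60 and 5.32 in Control 1 to 3, 2.85, 4.50 and 4.71 in Silica 1 to 3, and 5.24, 7.40 and 7.18 in Silica + ATL-III 1 to 3. The Silica + ATL-III libraries were above every Silica library, but Silica + ATL-III 1 lay below Control 3. The log2 fold change was 0.75 ± 0.20 over Silica (SE; edgeR adjusted p = 0.024) and 0.70 ± 0.20 over Control (SE; adjusted p = 0.038). The first call was lost in 5 of 20 alternatives, among them the fits without Silica 1, Silica + ATL-III 2 or Silica + ATL-III 3, and the second in 10 of 20, among them the fits without Control 1, Control 2, Silica + ATL-III 2 or Silica + ATL-III 3.

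Dnaaf3, which assembles dynein arms in the cytoplasm before they enter the cilium, had FPKM values of 11.31, 11.38 and 11.24 in Control, 6.18, 10.24 and 8.74 in Silica, and 12.97, 12.03 and 10.10 in Silica + ATL-III. Silica + ATL-III 3 lay below Silica 2, so these groups overlap, and the log2 fold change was 0.51 ± 0.15 (SE; edgeR adjusted p = 0.036). The call was lost in 14 of 20 alternatives, among them leaving out any Control library, Silica 1, Silica 3, Silica + ATL-III 1 or Silica + ATL-III 2. Dnaaf3 overlaps the heart troponin gene Tnni3 on the same strand of the table. Tnni3 had a log2 fold change of 0.16 over Silica (edgeR adjusted p = 0.47). In Silica against Control, where Dnaaf3 had -0.32, Tnni3 fell by 0.77 (log2 fold change -0.77; adjusted p = 0.0058). The part of this overlap in the values of Dnaaf3 was not tested.

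Dnah2os had FPKM values of 1.98, 2.18 and 3.45 in Control, 2.21, 1.52 and 2.49 in Silica, and 4.57, 4.03 and 3.24 in Silica + ATL-III. No Silica + ATL-III library overlapped Silica, while Silica + ATL-III 3 lay below Control 3. The log2 fold change over Silica was 0.94 ± 0.30 (SE; edgeR adjusted p = 0.047), lost in 10 of 20 alternatives, among them leaving out Control 1, Control 2, any Silica library, Silica + ATL-III 1 or Silica + ATL-III 2. Its sense partner Dnah2, an inner-arm heavy chain, had a log2 fold change of 0.47 (adjusted p = 0.079), and reads of this pair cannot be told apart either.

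Cfap20dc, named for a domain it shares with Cfap20, had FPKM values of 0.58, 0.46 and 0.56 in Control, 0.47, 0.96 and 0.55 in Silica, and 0.26, 0.24 and 0.39 in Silica + ATL-III. It was near the FPKM minimum throughout, reached it only in Control and Silica libraries, and had its highest value in Silica 2. It therefore entered through the groups where it is high, so its fall and the call on it are a description. The fitted log2 fold change over Silica was -1.12. As for Dnah14, no test is given for it, and its call in the counts above lends no support. That call was lost in 12 of 19 alternatives, among them leaving out any Control library, Silica 2, Silica 3, Silica + ATL-III 1 or Silica + ATL-III 2.

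For the members that were lower in Silica, the values in Silica + ATL-III lay between those of the other groups on average, without a call in either direction. Dnah6 had a mean of 7.83 ± 1.39 FPKM (SD, n = 3) in Silica + ATL-III, with a log2 fold change of 0.37 over Silica (edgeR adjusted p = 0.12) and of -0.27 against Control (adjusted p = 0.29). Cfap46 had 0.18 over Silica (adjusted p = 0.46) and Cfap221 had 0.28 (adjusted p = 0.39). These comparisons share the Silica libraries, so an opposite sign in them is not independent. Dnah5 was below Silica at -0.34 (adjusted p = 0.098), while 11 of the 14 Dnah symbols other than Dnah14 were above it. Its FPKM values were 7.40, 7.54 and 8.35 in Control, 6.25, 6.08 and 7.80 in Silica, and 4.61, 6.21 and 4.82 in Silica + ATL-III. Every Silica + ATL-III library was below every Control library, with a log2 fold change of -0.43 ± 0.14 (SE; edgeR adjusted p = 0.054) that passed the threshold in 10 of 20 alternatives, among them the fits without Silica 2 and without Silica + ATL-III 2.

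By role, heavy chains other than Dnah14 together with Dnah2os (median log2 fold change 0.23 over Silica), intermediate chains (0.20), assembly factors (0.18) and Cfap genes (0.14) were centred above 0, regulatory complex genes were at 0.09, and spokes (-0.11) and tektins (-0.03) were below. Drc1, which anchors the regulatory complex, had 4.73, 6.36 and 8.46 FPKM in Silica and 7.25, 11.95 and 6.66 FPKM in Silica + ATL-III, overlapping ranges beside 8.71, 7.36 and 8.14 FPKM in Control (log2 fold change 0.43; adjusted p = 0.21). Rsph9, a spoke-head protein, had 16.57, 15.48 and 16.68 FPKM in Control, 16.93, 14.85 and 20.07 FPKM in Silica, and 14.10, 13.35 and 14.55 FPKM in Silica + ATL-III. The last 2 groups did not overlap, yet the log2 fold change of -0.28 ± 0.13 (SE) was not called (edgeR adjusted p = 0.15; 0.03 without Silica 2). Besides Dnah14, 6 members had every Silica + ATL-III library above every Silica library in FPKM (14.6% of all tested genes did) and 5 had every one below (18.3% of all tested genes).

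Against Control, the Silica + ATL-III libraries showed 1 higher member among the 73 other than Dnah14, namely Cfap161, and none lower. This is 1.37% of the 73, against 14.0% of all genes tested (8.60% higher and 5.42% lower). With Dnah14 counted, 2 of 74 were higher and the share was 2.70%. The median log2 fold change was 0.05, beside 0.01 for all genes, and 68 members were within 0.5 of 0. At an unadjusted p under 0.05, 4 of the 73 were higher and 4 lower. The share of all genes at that looser limit was not counted, and 14.0% passed even the adjusted one. DESeq2 called 1 member lower, beside 16.5% of all genes in either direction. The count of 1 fell to 0 without Control 1, Control 2, Silica + ATL-III 2 or Silica + ATL-III 3, each of which ended the call on Cfap161. In these fits 9.18%, 9.84%, 10.7% and 13.4% of all genes were called. Tekt5, the tektin known best from sperm tails, had the lowest value at -1.01 (edgeR adjusted p = 0.16), from 1.82, 0.76 and 0.85 FPKM in Control and 0.34, 0.43 and 0.77 FPKM in Silica + ATL-III; its 10 to 54 reads per library make it among the least precise. In FPKM, 3 members besides Dnah14 had no overlap upward (11.1% of all genes tested) and 17 downward (28.5%).

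Few genes of the same cells outside the name rule were called. Of 86 tested genes of the axoneme and of multiciliated cells with other names, 3 rose and 2 fell in Silica against Control. In Silica + ATL-III, 3 rose and 3 fell against Silica, and 2 rose and 2 fell against Control. The medians were -0.02, 0.13 and 0.04 in the 3 comparisons. Of all genes tested, 14.2%, 18.5% and 14.0% were called in either direction. Stk33, a kinase gene, rose by 0.90 over Silica (log2; edgeR adjusted p = 0.00037) and by 0.66 over Control (adjusted p = 0.0022) in the Silica + ATL-III libraries. The other 2 that rose over Silica, chosen for naming after their values were seen, were Ttll6, a tubulin glutamylase, at 0.63 (adjusted p = 0.03) and Kif27, a kinesin, at 0.55 (adjusted p = 0.041). Those that fell, chosen likewise, were Aoc1, an amine oxidase, at -1.40 (adjusted p = 0.0016; -1.21 against Control, adjusted p = 0.004), Capsl at -0.49 (adjusted p = 0.026) and Mlf1 at -0.49 (adjusted p = 0.039). In Silica against Control, Dnal1, an outer-arm light chain, fell by 0.42 (adjusted p = 0.032) and Spag1, an assembly factor, by 0.53 (adjusted p = 0.045), while Ccdc153 (0.41, adjusted p = 0.038), Dnal4 (0.46, adjusted p = 0.037) and Capsl (0.45, adjusted p = 0.047) rose. Tppp3 fell by 0.47 against Control in the Silica + ATL-III libraries (adjusted p = 0.028), where Dnal4 rose by 0.58 (adjusted p = 0.011). Dynlrb2 was not called in any comparison.

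Of 19 tested regulators of cilium formation, 1 rose and 1 fell in Silica against Control, 2 rose and 2 fell in Silica + ATL-III against Silica, and 1 rose and 2 fell against Control. Rfx1, a member of the X-box binding family, fell by 0.59 in Silica (edgeR adjusted p = 0.022) and rose by 0.56 over Silica with ATL-III (adjusted p = 0.02). Fhad1 rose by 0.64 over Silica with ATL-III (adjusted p = 0.0078). The most abundant of the list, Ccdc78, which acts in centriole production, and E2f5, a partner of the Mcidas complex, were not called in any comparison. Myb, a transcription factor of early multiciliated cells and of blood progenitors, fell by 0.58 against Silica (adjusted p = 0.022) and by 0.70 against Control (adjusted p = 0.0099) in the Silica + ATL-III libraries. Other calls, named after their values were seen, were Tacc3 at 0.56 in Silica against Control (adjusted p = 0.043) and Deup1, a centriole gene, at -0.69 against Silica (adjusted p = 0.031). Against Control they were Ccno, a cyclin-like gene needed for basal body production, at 1.04 (adjusted p = 0.029) and Gmnc, which acts upstream of Mcidas, at -1.09 (adjusted p = 0.041). Of 54 genes of intraflagellar transport and the primary cilium, which many lung cells carry, 2 rose and 1 fell in Silica against Control. In Silica + ATL-III, 2 rose against Silica and 1 rose against Control. Each is a smaller share than that of all genes. Ift57, a subunit of the transport trains, rose by 0.37 in Silica (edgeR adjusted p = 0.042) and by 0.39 in Silica + ATL-III against Control (adjusted p = 0.03). Arl6, a small GTPase of ciliary membrane traffic, rose by 0.48 in Silica (adjusted p = 0.037), where Mks1, a gene of the transition zone named after its value was seen, fell by 0.52 (adjusted p = 0.045). Over Silica, Ift46 rose by 0.41 (adjusted p = 0.035). The most abundant genes of this list, Ift20 and Traf3ip1, were not called in any comparison.

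**Figure D4:**
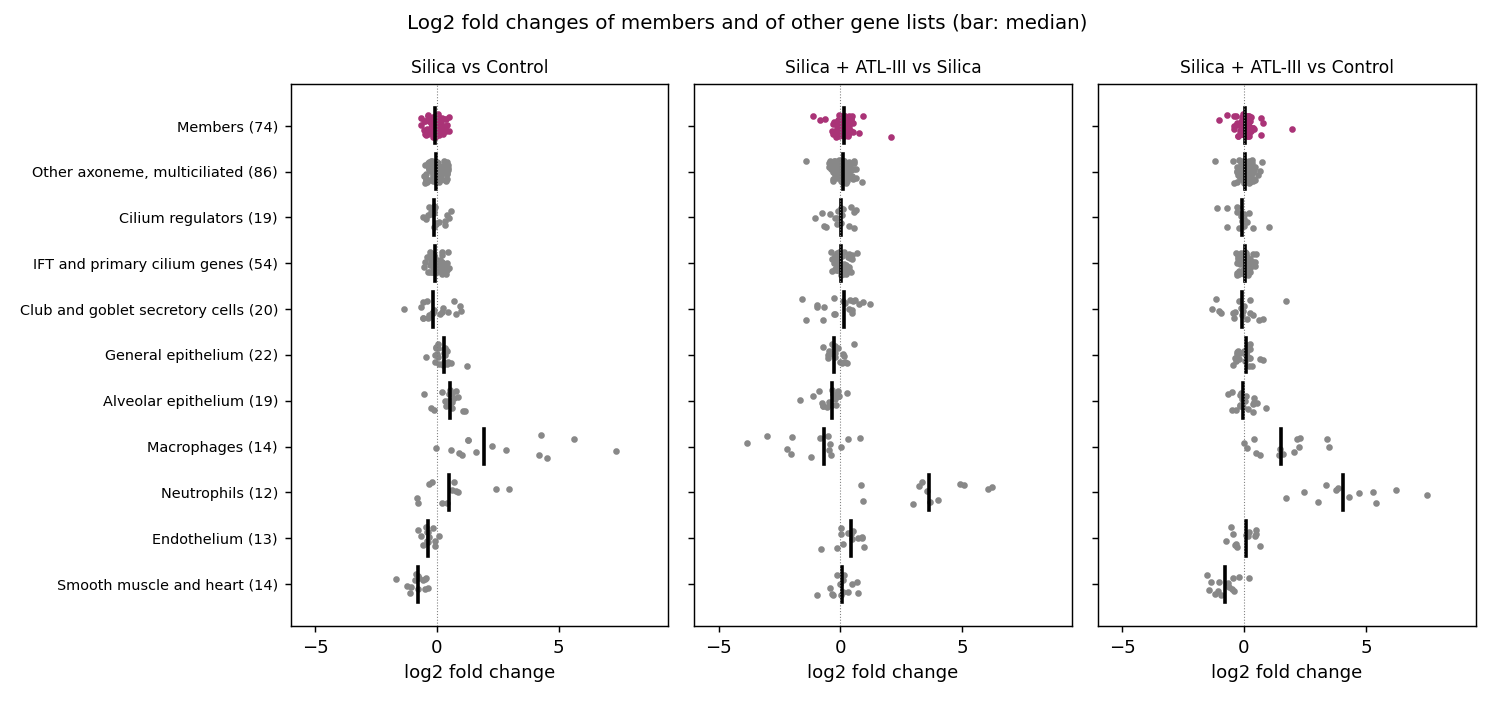
Log2 fold change (horizontal axis) of each tested gene (points) of the members and of 10 other lists, with the median as a bar, in the 3 comparisons. Medians of the cilium lists lie near 0 in each comparison, macrophage genes are at 1.93 in Silica against Control, and neutrophil genes are at 3.62 in Silica + ATL-III against Silica.

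Larger shares of the markers of macrophages, neutrophils and alveolar epithelium were called in the same libraries. Beside them, 14.2% of all tested genes were called in Silica against Control and 18.5% in Silica + ATL-III against Silica. Macrophage genes were higher in Silica than in Control for 12 of 14 (summed FPKM 679 to 841 in Control, 2159 to 6129 in Silica), while 8 of 14 were lower and 1, Cd14, was higher in Silica + ATL-III than in Silica (1713 to 2693). Neutrophil genes were higher in Silica + ATL-III than in Silica for 12 of 12 (summed FPKM 601 to 3919 in Control, 1066 to 4822 in Silica, 30458 to 45767 in Silica + ATL-III). Alveolar epithelium had 9 of 19 genes higher and 1 lower in Silica, then 8 lower in Silica + ATL-III against Silica (summed FPKM 24161 to 32724, 30710 to 36647 and 25594 to 32759 in the 3 groups). Of 22 general epithelial genes, 2 rose and 1 fell in Silica (median 0.28), and 1 rose and 2 fell with ATL-III (median -0.25). The part of these shifts in the members' values was not tested. Scaled to the general epithelial genes, 1 member was lower in Silica, Dnah6, beside 5.30% of all genes called in either direction. That scaling moved the all-gene median to -0.18 in this comparison and to 0.16 in Silica + ATL-III against Silica.

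Airway neighbours of ciliated cells shifted in both directions. Of 20 tested genes of club and goblet cells, 4 rose and 2 fell in Silica. In Silica + ATL-III, 4 rose and 4 fell against Silica, and 3 rose and 1 fell against Control. The shares of all genes called, for these and the lists below, were 14.2%, 18.5% and 14.0% in the 3 comparisons. Gsta3, a detoxifying enzyme, fell by 0.59 in Silica (edgeR adjusted p = 0.0095) and rose by 1.20 over Silica with ATL-III (adjusted p = 9.4e-05), and Ltf, a secreted iron-binding protein that neutrophils also make, rose by 1.73 against Control (adjusted p = 0.00013). The most abundant club cell genes, Scgb1a1 and Scgb3a2, were not called in any comparison. Only 4 of 16 genes of basal, neuroendocrine and tuft cells were tested, with 1 higher in Silica, and 1 higher and 1 lower in Silica + ATL-III against Silica. Endothelial genes had 3 of 13 lower in Silica and 7 higher with ATL-III, with 1 lower. Smooth muscle and heart genes had 10 of 14 lower in Silica (summed FPKM 267 to 276 in Control, 149 to 165 in Silica) and 3 higher in Silica + ATL-III against Silica. Of the 3 testis and sperm genes tested, none changed in Silica and 1 rose over Silica with ATL-III.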

How the data were processed

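RNA was sequenced from 9 whole-lung libraries, 3 per group, numbered as in their titles. Cutadapt 1.9.1, HISAT2 2.0.1, HTSeq 0.6.1 and build mm10 are named, without roles, in the submitters' processing notes; no source used here gives the annotation release or any use of strand. The deposited table gives whole-number counts per gene, not normalized, and the FPKM the authors computed; these equal counts divided by exonic length and library total within 0.0050. Gene positions in the table are of an uncertain build, so only chromosomes are printed; promoter windows come from RefSeq (GRCm38.p6). Of the 74 members 19, Foxj1 and Rsph1 among them, had no window. By the positions in the table, 31 members overlap another tested gene. The part of such overlaps in the members' values was not tested.

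Counts of the 18103 genes that reached 0.5 FPKM in 3 or more libraries were fitted with edgeR 4.0.16 (R 4.3.3; quasi-likelihood test, TMM scaling, 3 group means over all 9 libraries). Calls were made at a Benjamini-Hochberg adjusted p under 0.05 over all tested genes. The script was tested on simulated data. Alternatives used DESeq2 1.42.0, limma 3.58.1 on log2(FPKM + 0.5) or log2(FPKM + 0.1), other scalings, filters and sample sets. Per-library values are given for Foxj1, Mcidas, the 2 most abundant members of each class and, per comparison, the 3 members with the smallest p and those called against the majority; a few others were named after their values were seen. Of the lists of cilium and secretory cell genes, the 2 most abundant genes and the gene with the smallest p in each comparison are named; lists of other cells are given by their counts, although the rule allowed names there too. The members and lists were chosen with earlier results of these data known. Intervals are SE of a fit or SD over 3 libraries. Total counts of 16047175 to 17792481 leave genes under about 0.5 FPKM imprecise.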

Additional observations from a re-analysis of the deposited data

How the results depend on the processing

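The numbers of called members, Dnah14 included, depended on the processing, while no call on a named member changed direction. Dnah14 is counted here as a description, since the FPKM minimum selected it by these same values. Among the values of named members under the alternatives, 1167 kept their side of the threshold, 71 lost a call and 16 gained one. Most of the 1167 had no call in the main fit to lose, so this number does not show how stable the calls were. The share of all genes called in either direction moved too, also apart from the fits that left out 1 library. It ran from 5.30% relative to epithelial genes to 18.8% with DESeq2 in Silica against Control. For Silica + ATL-III it ran from 11.7% to 21.4% against Silica and from 7.62% to 17.4% against Control. In Silica against Control, higher members numbered 0 and became 1 with DESeq2 and 1 with no filter on low values. Lower members numbered 3 and became 5 with DESeq2, 9 with library totals only, 11 with no filter and 1 relative to epithelial genes. In Silica + ATL-III against Silica, higher members numbered 4 and became 2 with upper-quartile scaling, 9 with no filter, 2 and 2 with limma on log2(FPKM + 0.5) and log2(FPKM + 0.1), and 2 with the 6 libraries of the pair. Lower members numbered 1, Cfap20dc, and became 0 and 0 with limma, 0 with the 6 libraries and 0 relative to epithelial genes. A minimum FPKM of 1 left Cfap20dc, with a highest value of 0.96 FPKM, untested, and the count was 0. In Silica + ATL-III against Control, higher members numbered 2 and became 1 with library totals, 1 with upper-quartile scaling, and 1 and 0 with limma. They became 0 relative to epithelial genes and 1 with the length trend removed, an alternative chosen after seeing the data. A minimum FPKM of 1 left Dnah14, with a highest value of 0.67 FPKM, untested, and the count was 1. Lower members numbered 0 and became 1 with DESeq2, 2 with library totals, 2 with upper-quartile scaling, 1 with a minimum FPKM of 1, 1 with no filter, 1 and 1 with limma, and 1 with the 6 libraries. Leaving out each library in turn gave 0 to 3 higher and 0 to 11 lower members in Silica against Control (4.71% to 22.1% of all genes). Silica + ATL-III against Silica had 1 to 8 higher and 0 to 2 lower members (10.8% to 21.9% of all genes). Against Control it had 1 to 2 higher and 0 to 1 lower (8.53% to 16.4%). In the last 2 comparisons the lowest count of higher members, 1, was Dnah14 alone. Without Dnah14 the higher members numbered 0 to 7 and 0 to 1. Apart from the members left untested by a filter, the causes of these changes were not tested.

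The replicate numbers in the titles were not taken as pairs. Correlations of same-numbered deviations from group means ran from -0.0974 to 0.103, and not every library correlated best with its own number. Between Control and Silica the same-numbered pairs had 0.0904, 0.103 and 0.0664, and the other pairs -0.123 to 0.0419. Same-numbered pairs with Silica + ATL-III ran from -0.0974 to -0.00963. With 3 libraries a group, such weak correlations cannot decide whether the libraries are paired. With the replicate number as a block, the members called were 0 higher and 2 lower, 2 higher and 0 lower, and 2 higher and 0 lower in the 3 comparisons. Dnah14 was among the higher ones in the last 2 comparisons. The shares of all genes called were 11.9%, 16.1% and 12.5%. With a median SE of 0.17, 3 libraries a group resolve only changes well above the size most members showed.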
